A study of Homo sapiens with 12 samples.

Results

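Transcript levels of 10 genes around the transcription factor STAT5 were examined in K562 cells treated with the kinase inhibitor nilotinib, with hemin or with both. The genes were taken by symbol from the 58735 genes of the count table and comprise STAT5A and STAT5B, the kinase genes PIM1, PIM2 and PIM3, the feedback inhibitor genes CISH, SOCS1, SOCS2 and SOCS3, and the cytokine gene OSM. K562 is a human erythroleukemia line driven by the fusion kinase BCR-ABL1, against which nilotinib was developed, and hemin is an iron porphyrin used to push these cells toward the erythroid lineage. Mock DMSO cells received vehicle alone, mock nilotinib cells received 0.1 μM nilotinib, hemin DMSO cells received vehicle and 50 μM hemin for 24 h, and hemin nilotinib cells received both agents at these doses, with 3 libraries in each group. The study's methods describe vehicle at 0.1% DMSO in all cultures, pretreatment for 24 h before hemin, and collection at the addition of hemin and 24 h later. Under that timing the mock cells were also collected earlier, so that hemin and time in culture cannot be told apart. The hemin nilotinib cells would also have been exposed to nilotinib for longer than the mock nilotinib cells, so that hemin and the length of exposure cannot be told apart in the difference between both nilotinib effects. All 12 libraries came from the same cell line, and although they are described as biological replicates, no source used here says that they were separate cultures, so p-values measure only the spread between these libraries.

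STAT5A and STAT5B are closely related transcription factors that Janus kinases phosphorylate downstream of cytokine receptors, after which they enter the nucleus and bind DNA as dimers at palindromic sites. Active BCR-ABL1 keeps STAT5 phosphorylated without a cytokine, and STAT5 is known to induce PIM kinases, which promote survival, and CISH and SOCS proteins, which bind receptors or Janus kinases and close a negative feedback loop. In erythroid cells STAT5 acts downstream of the erythropoietin receptor, and OSM, a cytokine of the interleukin-6 family, is another known STAT5 target. Only RNA was measured here, not the amount or phosphorylation of any protein, and in RNA from whole cultures a change in fewer cells cannot be told apart from a change in RNA per cell.

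The core of the palindromic STAT5 site reads TTCNNNGAA, which is the same on both strands. It was searched in the RefSeq promoters of the genes (GRCh38.p14, from 250 bases before to 50 bases after the start of transcription), of which 11 were found for 8 of the 10 genes, while OSM and SOCS2 were not matched. The CISH promoter is shown because it held 4 of these 9-base sequences, which the capitals mark, and the promoters of 3 further genes that fell with nilotinib are shown for comparison.
CISH promoter, chr3:50611725-50612024, minus strand: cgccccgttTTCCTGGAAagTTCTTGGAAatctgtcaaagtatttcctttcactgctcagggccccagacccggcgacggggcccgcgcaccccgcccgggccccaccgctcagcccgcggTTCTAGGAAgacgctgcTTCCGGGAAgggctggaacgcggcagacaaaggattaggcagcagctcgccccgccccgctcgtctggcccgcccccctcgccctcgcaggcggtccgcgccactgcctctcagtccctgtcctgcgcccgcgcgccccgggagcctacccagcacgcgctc
SOCS1 promoter, chr16:11256155-11256454, minus strand: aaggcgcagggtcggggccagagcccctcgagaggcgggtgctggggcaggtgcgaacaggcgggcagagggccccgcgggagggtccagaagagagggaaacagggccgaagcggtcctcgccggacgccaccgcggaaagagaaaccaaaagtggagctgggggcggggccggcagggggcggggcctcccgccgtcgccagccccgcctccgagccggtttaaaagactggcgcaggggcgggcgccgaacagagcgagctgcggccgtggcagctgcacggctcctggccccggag
SOCS3 promoter, chr17:78360876-78361175, minus strand: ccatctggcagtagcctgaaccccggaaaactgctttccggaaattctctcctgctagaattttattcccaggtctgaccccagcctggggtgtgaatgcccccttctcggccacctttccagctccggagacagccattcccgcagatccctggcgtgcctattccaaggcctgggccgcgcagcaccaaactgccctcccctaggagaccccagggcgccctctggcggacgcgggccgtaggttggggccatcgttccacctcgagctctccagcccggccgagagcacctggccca
PIM2 promoter, chrX:48918975-48919274, minus strand: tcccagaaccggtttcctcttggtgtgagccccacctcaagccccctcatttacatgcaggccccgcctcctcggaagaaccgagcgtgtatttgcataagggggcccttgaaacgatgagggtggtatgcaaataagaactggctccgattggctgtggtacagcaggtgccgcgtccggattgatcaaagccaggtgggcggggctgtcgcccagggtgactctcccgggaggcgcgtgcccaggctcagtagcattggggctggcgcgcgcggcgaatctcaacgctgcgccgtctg

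The 4 matches in the CISH promoter were TTCCTGGAA at 241 to 233 bases before the start, TTCTTGGAA at 230 to 222, TTCTAGGAA at 129 to 121 and TTCCGGGAA at 112 to 104, so that they formed 2 close pairs. No other promoter of the 8 genes held the sequence in this window. The SOCS3 promoter shown lay outside the counted SOCS3 gene, whose start on the minus strand is at chr17:78360077. A further SOCS3 promoter, at chr17:78359618-78359917, lay inside that gene. Neither window covered the start of the counted gene, so the sequence there was not searched. The start was also missed for STAT5B and PIM3, whose windows lay inside their counted genes. For PIM1 the window ended just before the counted gene. Over the whole table, 7.66% of 35116 promoters held at least 1 match. By gene, 9.38% of 27305 genes had a promoter with a match, against 1 of these 8 genes (12.5%). The 7 promoters with 4 or more matches were those of CISH, BCL6, LOC124907892, ZNF112, ZNF225 and ZNF225-AS1, of which BCL6 is another known STAT5 target. A match is a run of letters and not a measured binding site, and a promoter without a match holds only no such letters in this window.

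Counts summed to between 33457078 and 50506990 per library, and the correlation of log levels between replicates ranged from 0.969 to 0.992. Levels are given as CPM, which are counts scaled to a library of 1e+06 counts after TMM adjustment, and a change was called at an adjusted p under 0.05 in edgeR's quasi-likelihood test over 20821 genes. Summed over 5 K562 and erythroid genes the level was 839 to 1234 CPM in mock DMSO, 2922 to 4309 in mock nilotinib, 610.2 to 686 in hemin DMSO and 3249.7 to 3875 in hemin nilotinib, so it was not higher in the hemin DMSO libraries than in the mock DMSO libraries. The genes of that list differed in direction, with means in mock DMSO and hemin DMSO of 195 and 349 CPM for the fetal globin gene HBG1 and 17.2 and 33.4 CPM for HBG2. In the same order the means were 284 and 24 CPM for KLF1, 244 and 88.7 CPM for TAL1 and 296 and 158 CPM for GATA1, which encode erythroid transcription factors. Summed over 7 marker genes of other cells it was 76.3 to 86.5, 52.3 to 68.6, 88.3 to 112 and 45.8 to 54.7 CPM in the same order, of which EPCAM made 27.7 to 65.5 CPM, while the B-cell marker MS4A1 stayed at no more than 3 counts in every library; the part of these genes in the results was not tested. The first hemin nilotinib library stood apart, with a smaller hemin response than its replicates. Its level of SLC7A11, a cystine transporter gene, was 80.7 CPM against 369 and 455 CPM in the other hemin nilotinib libraries and 65.8 to 113 CPM in mock nilotinib, and its level of the transferrin receptor gene TFRC was 2845 CPM against 519 and 429 CPM. These genes were chosen after their values were seen, and many of the results that rest on this library are given with and without it.

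Nilotinib without hemin lowered most of these genes in K562 cells. Of the 10 genes, 8 fell, OSM rose and STAT5B did not pass the test, where 42.5% of all genes tested were called, 20.7% higher and 21.8% lower. The decreases ranged from 2.13-fold for PIM3 to 10.9-fold for SOCS3, and the median log2 fold change was -1.64, against 0 over all genes. The mock DMSO and mock nilotinib libraries did not overlap for any of the 10 genes, as for 61% of all genes.

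In the presence of hemin the log2 fold change with nilotinib had the opposite sign for STAT5A, was smaller in size for PIM1, PIM2, CISH, SOCS1, SOCS2 and OSM and larger for STAT5B, PIM3 and SOCS3. The test of each difference is given with the gene. PIM2, PIM3, CISH, SOCS2 and SOCS3 fell, STAT5A and STAT5B rose, and PIM1, SOCS1 and OSM did not pass the test, where 64.2% of all genes were called, 32.4% higher and 31.8% lower. The median log2 fold change was -0.67, against 0.02 over all genes, and libraries did not overlap for 7 of the 10 genes and for 63.5% of all genes. Without the first hemin nilotinib library 7 genes were again called, 5 of them lower, where 13828 genes were called in all.

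Hemin alone called 9 of the 10 genes, 6 of them lower and PIM3, SOCS3 and OSM higher, where 53.6% of all genes were called, 25.7% higher and 27.8% lower. The median log2 fold change was -0.65, against -0.05 over all genes, and the libraries did not overlap for any of the 10 genes, as for 62.7% of all genes. Hemin added to nilotinib called 3 of them, with PIM2 higher and SOCS2 and OSM lower, where 5.80% of all genes were called, 3.52% higher and 2.28% lower. The libraries did not overlap for 4 of the 10 genes and for 23.3% of all genes, and the median was 0.02, against 0.03. Without the first hemin nilotinib library 6 were called, with PIM1, PIM2 and PIM3 higher and CISH, SOCS2 and OSM lower. The genes called among all tested went from 1208 of 20821 to 2793 in that fit, in which the filter was applied anew. By contrast, none was called without the second or the third mock nilotinib library or the second hemin nilotinib library (4 to 6 genes had an unadjusted p under 0.05 in these fits of edgeR's test), and PIM2 alone was called without the third hemin nilotinib library.

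The effect of nilotinib differed between the hemin and the mock condition for 6 of the 10 genes by the interaction term, which subtracts the log2 fold change without hemin from that with hemin, where 30.1% of all genes were called, 17.1% higher and 13% lower. The difference was positive for STAT5A, PIM1, PIM2, CISH and SOCS2 and negative for OSM. Each group enters more than 1 of these comparisons, which are therefore not independent of each other.

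**Figure D1:**
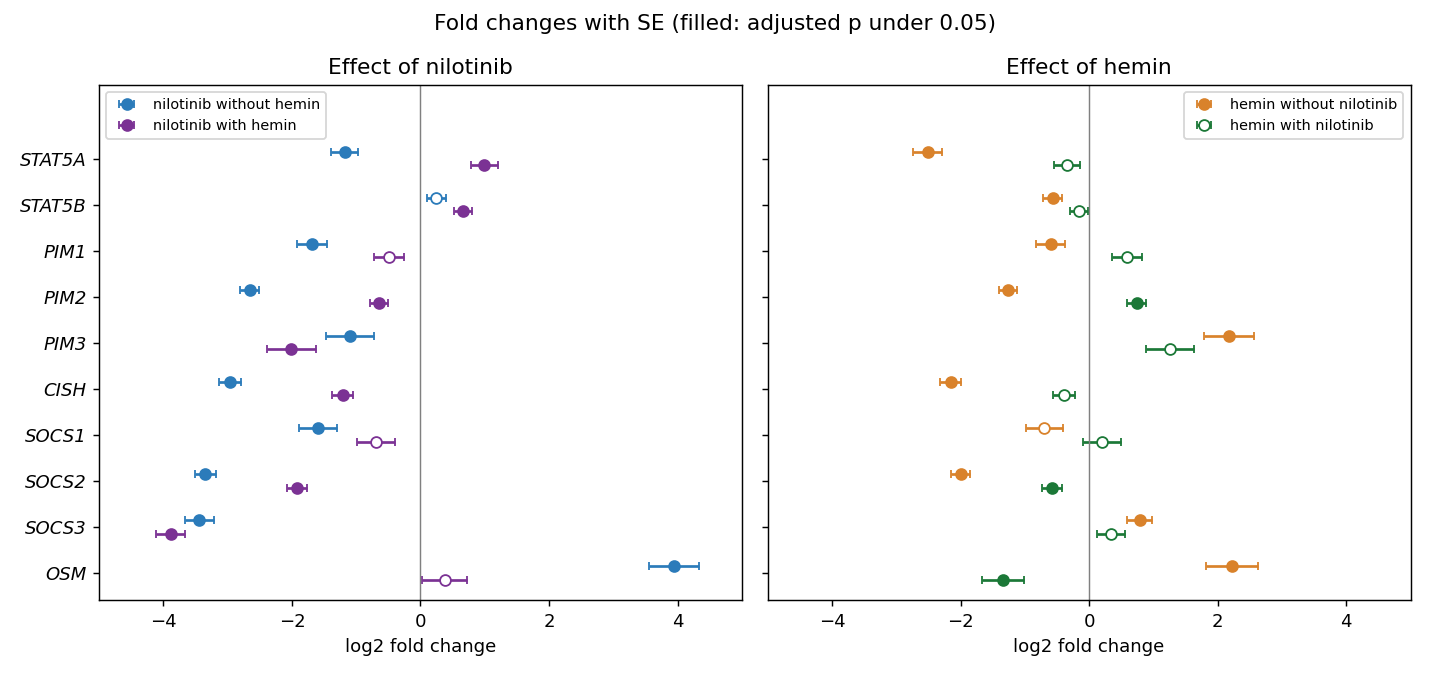
Log2 fold change with its standard error (x axis) of the 10 genes (y axis) for nilotinib without and with hemin (left) and hemin without and with nilotinib (right), in which filled points have an adjusted p under 0.05. STAT5A lies at -1.18 for nilotinib without hemin and at 0.99 with hemin, whereas SOCS3 lies at -3.44 and -3.89.

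STAT5A lies on chromosome 17 (GRCh38, chr17:42287547-42311943, plus strand), 10840 bases from STAT5B (chr17:42199168-42276707, minus strand), and the genes point away from each other. The paralogs share 4.58% and 4.25% of their 150-base transcript stretches, so that reads of 150 bases could be told apart over most of their length. STAT5A was at 446, 452 and 494 CPM in mock DMSO, at 218, 210.3 and 187 CPM in mock nilotinib, at 59.6, 109 and 75.6 CPM in hemin DMSO and at 212, 157 and 116 CPM in hemin nilotinib. Every mock DMSO library was above every other library and every hemin DMSO library below every other, and the libraries of the nilotinib groups overlapped with each other. STAT5A fell 2.26-fold with nilotinib alone (log2 fold change -1.18 ± 0.21, SE, adjusted p = 2.88e-04) and 5.71-fold with hemin alone (-2.51 ± 0.22, adjusted p = 1.93e-07). On top of hemin, nilotinib raised it 1.99-fold (0.99 ± 0.21, adjusted p = 6.41e-04; 0.77 ± 0.19 without the first hemin nilotinib library), so that the effect changed sign between conditions, with a difference of 2.17 ± 0.30 on the log2 scale (adjusted p = 8.91e-05). Hemin on top of nilotinib gave -0.34 ± 0.21 (adjusted p = 0.369), or -0.58 ± 0.19 (adjusted p = 0.0535) without the first hemin nilotinib library.

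STAT5B, the other paralog, moved less, with condition means that spanned 0.83 on the log2 scale against 2.56 for STAT5A. It was at 383, 381 and 405 CPM in mock DMSO, at 426, 488 and 476 CPM in mock nilotinib, at 217, 321 and 249.8 CPM in hemin DMSO and at 439.6, 425 and 382 CPM in hemin nilotinib. Only the hemin DMSO libraries lay apart, below all others. STAT5B fell 1.48-fold with hemin alone (-0.57 ± 0.15, adjusted p = 0.00351), and nilotinib raised it 1.58-fold in the presence of hemin (0.66 ± 0.15, adjusted p = 8.38e-04; 0.63 ± 0.15 without the first hemin nilotinib library). Nilotinib alone gave 0.25 ± 0.14 (adjusted p = 0.178), which did not pass the test although the libraries did not overlap, and the difference between conditions was 0.41 ± 0.20 (adjusted p = 0.138; 0.58, adjusted p = 0.0214, without the second hemin DMSO library).

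Per kilobase of transcript, STAT5A was the more abundant of the paralogs in mock DMSO only. The ratio of STAT5A to STAT5B on the RPKM scale (CPM per kilobase of the deposited gene length) was 1.31 to 1.37 in mock DMSO, 0.441 to 0.573 in mock nilotinib, 0.307 to 0.379 in hemin DMSO and 0.341 to 0.539 in hemin nilotinib. The ratio was above 1 in all 3 mock DMSO libraries and below 1 in the other 9 libraries.

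**Figure D2:**
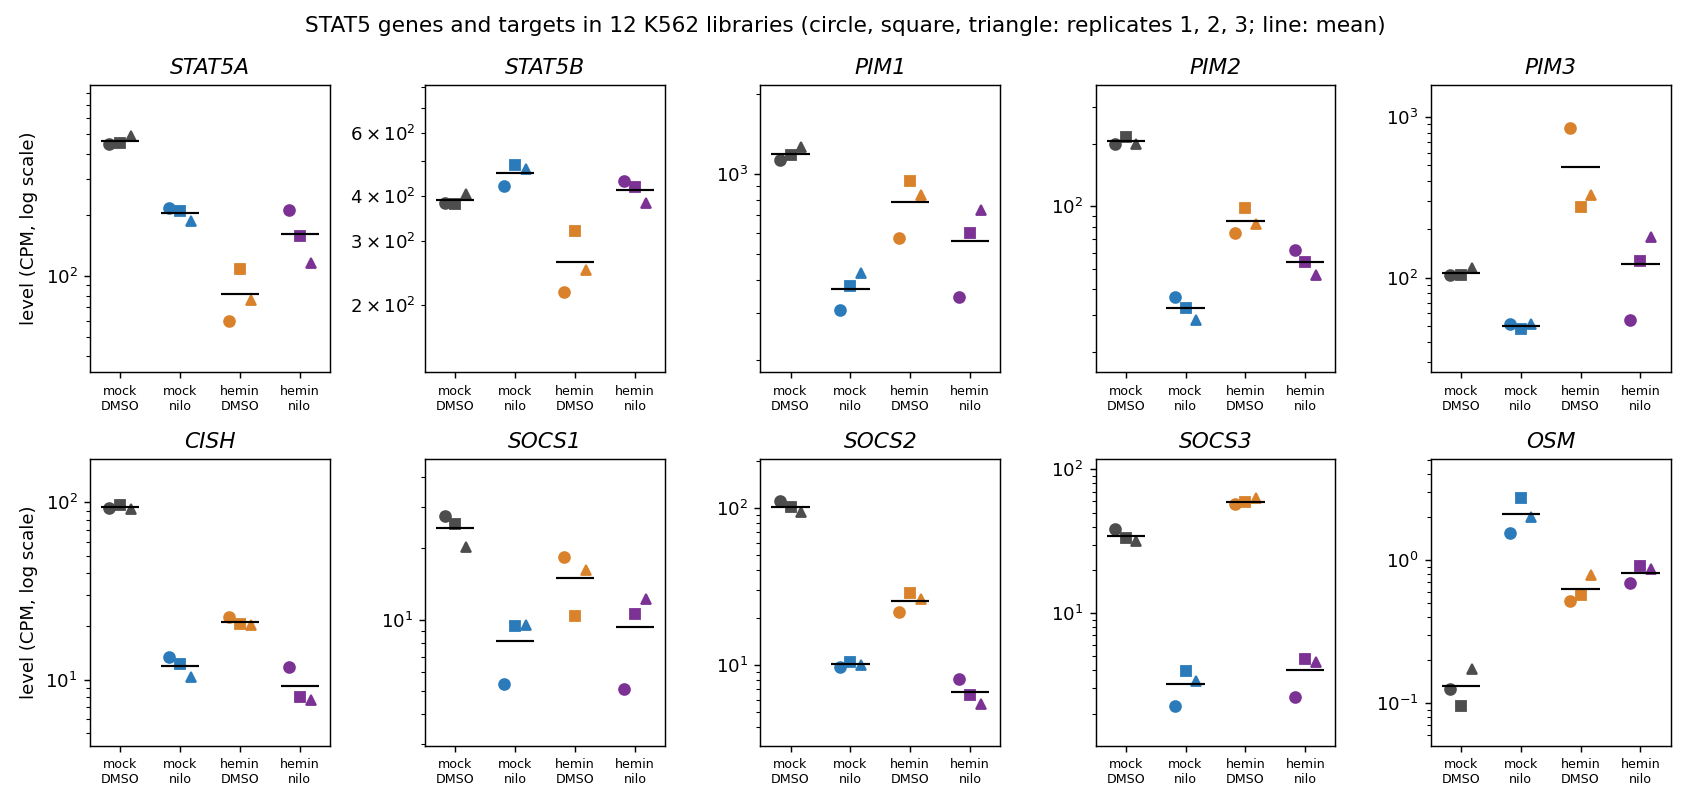
Level of the 10 genes (y axes, CPM, log scale, each panel with its own range) in the 12 libraries by group (x axes), with circles, squares and triangles for replicates 1, 2 and 3 and a line at the group mean. PIM3 in hemin DMSO spreads from 274 to 856 CPM, and SOCS3 stays at or below 4.83 CPM in all 6 nilotinib libraries.

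PIM1 encodes a serine/threonine kinase that needs no phosphorylation to be active, and neither its protein level nor its activity was measured here. PIM1 (chr6:37170203-37175426, plus strand) was at 1133, 1177 and 1262 CPM in mock DMSO, at 308, 379 and 423 CPM in mock nilotinib, at 576, 945 and 835 CPM in hemin DMSO and at 345, 599.8 and 735 CPM in hemin nilotinib. The mock DMSO libraries were the highest and did not overlap with any other group, and the hemin DMSO and hemin nilotinib libraries overlapped. PIM1 fell 3.22-fold with nilotinib alone (-1.69 ± 0.24, adjusted p = 3.07e-05). In the presence of hemin the value was -0.49 ± 0.23 (adjusted p = 0.0755), or -0.22 ± 0.19 (adjusted p = 0.308) without the first hemin nilotinib library, and it passed the test without the first hemin DMSO library (-0.67, adjusted p = 0.0242) and without the third hemin nilotinib library (-0.72, adjusted p = 0.0122). The difference between conditions was 1.2 ± 0.33 (adjusted p = 0.0122).

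Hemin alone lowered PIM1 1.52-fold (-0.60 ± 0.23, adjusted p = 0.0387). That call was lost when any of 4 libraries was left out, with adjusted p of 0.0655 without the second and 0.07 without the third mock DMSO library, 0.176 without the first and 0.0727 without the third hemin DMSO library. Hemin on top of nilotinib gave 0.60 ± 0.23 (adjusted p = 0.144), and PIM1 rose there by 0.85 ± 0.19 (adjusted p = 0.00528) without the first hemin nilotinib library, which at 345 CPM lay among the mock nilotinib libraries.

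PIM2, the second kinase of the family, followed an even order over the groups. PIM2 (chrX:48913182-48919024, minus strand) was at 199.9, 216 and 199 CPM in mock DMSO, at 36.7, 32.4 and 28.4 CPM in mock nilotinib, at 74.3, 98.5 and 82.6 CPM in hemin DMSO and at 62, 54.1 and 46.8 CPM in hemin nilotinib. No library of any group overlapped with those of another, from mock DMSO at the top through hemin DMSO and hemin nilotinib to mock nilotinib. PIM2 fell 6.3-fold with nilotinib alone (-2.66 ± 0.15, adjusted p = 2e-09) and 1.57-fold with nilotinib in the presence of hemin (-0.65 ± 0.14, adjusted p = 8.37e-04; -0.74 ± 0.15 without the first hemin nilotinib library), and the difference was 2.01 ± 0.20 (adjusted p = 7.68e-06). Hemin lowered it 2.4-fold without nilotinib (-1.27 ± 0.14, adjusted p = 2.6e-06) and raised it 1.67-fold with nilotinib (0.74 ± 0.14, adjusted p = 0.00896; 0.63 ± 0.15, adjusted p = 0.00767, without the first hemin nilotinib library). The rise was no longer called without the second or the third mock nilotinib library (adjusted p = 0.0667 and 0.0808) or the second hemin nilotinib library (adjusted p = 0.0511).

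PIM3, the remaining family member, was the only PIM gene that hemin raised without nilotinib. PIM3 (chr22:49960513-49964080, plus strand) was at 104, 104 and 114 CPM in mock DMSO, at 51.5, 48 and 51.7 CPM in mock nilotinib, at 856, 274 and 327 CPM in hemin DMSO and at 54.8, 127 and 179 CPM in hemin nilotinib. All hemin DMSO libraries were above all others, the first by a wide margin, and the first hemin nilotinib library lay just above the mock nilotinib libraries. Hemin alone raised PIM3 4.52-fold (2.18 ± 0.39, adjusted p = 1.91e-04), or 2.81-fold without the first hemin DMSO library (1.49 ± 0.30, adjusted p = 9.33e-04). Nilotinib lowered it 4.03-fold in the presence of hemin (-2.01 ± 0.38, adjusted p = 2.56e-04), which became 2.49-fold (-1.32 ± 0.30, adjusted p = 0.00165) without the first hemin DMSO library and 3.14-fold (-1.65 ± 0.32, adjusted p = 2.19e-04) without the first hemin nilotinib library.

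Without hemin, nilotinib lowered PIM3 2.13-fold (-1.09 ± 0.38, adjusted p = 0.0274; -1.10 ± 0.28, adjusted p = 0.0032, without the first hemin nilotinib library). The libraries of the 2 groups did not overlap, but the call was lost without the third mock DMSO library (adjusted p = 0.0593) and without the first, second or the third mock nilotinib library (adjusted p = 0.0605, 0.0634 and 0.0521). The difference between conditions was -0.92 ± 0.53 (adjusted p = 0.202), and -0.24 ± 0.41 (adjusted p = 0.709) without the first hemin DMSO library or -0.56 ± 0.41 (adjusted p = 0.331) without the first hemin nilotinib library. Hemin on top of nilotinib gave 1.26 ± 0.38 (adjusted p = 0.0601). That value was 1.6 ± 0.30 (adjusted p = 0.00181) without the first hemin nilotinib library, and it passed the test also without the first hemin DMSO library (1.26 ± 0.28, adjusted p = 0.0201).

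**Figure D3:**
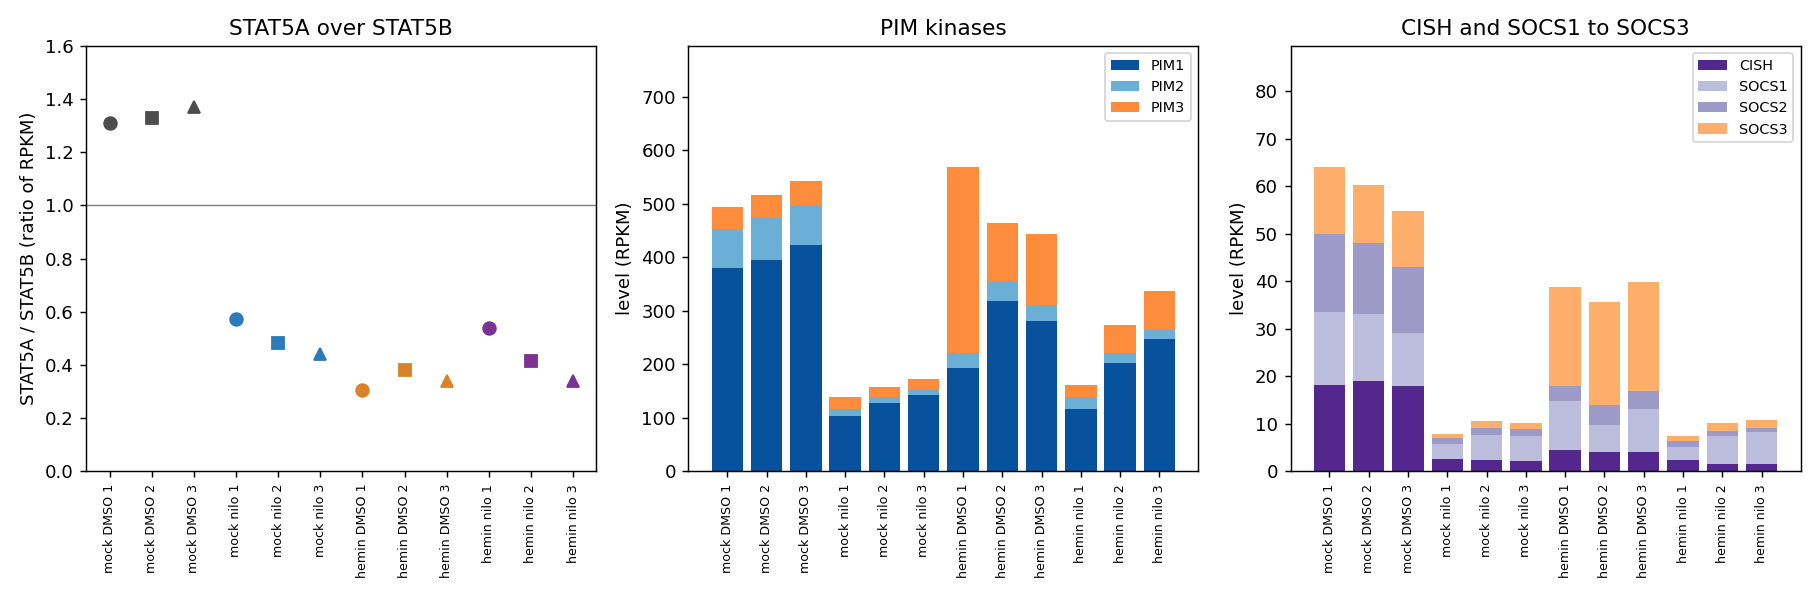
Ratio of STAT5A to STAT5B (left, ratio of RPKM), and stacked RPKM levels of the PIM genes (middle) and of CISH, SOCS1, SOCS2 and SOCS3 (right), each bar or point being 1 of the 12 libraries (x axes). PIM3 makes 61.2% of the PIM sum in the first hemin DMSO library, and SOCS3 makes 53.9% to 60.5% of the sum on the right in the hemin DMSO libraries.

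Per kilobase, the summed PIM level was 495 to 542 RPKM in mock DMSO, 138 to 173 in mock nilotinib, 443 to 568 in hemin DMSO and 161 to 337 in hemin nilotinib. The sum in the hemin DMSO libraries spanned the range of the mock DMSO libraries, but its makeup was another. PIM1 made 76.7% to 78.2% of it in mock DMSO and 34.1% to 68.4% in hemin DMSO, and PIM3 made 8.21% to 8.56% and 23.9% to 61.2%. In mock nilotinib PIM1 made 75.2% to 82% of the smaller sum.

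CISH encodes a cytokine-inducible SH2 protein that binds phosphorylated receptors and blocks the docking of STAT5, and it is among the best known STAT5 targets. CISH (chr3:50606490-50611831, minus strand), whose promoter held the 4 TTCNNNGAA sequences shown above, was at 93.3, 97.1 and 91.7 CPM in mock DMSO, at 13.5, 12.2 and 10.4 CPM in mock nilotinib, at 22.6, 20.6 and 20.3 CPM in hemin DMSO and at 11.9, 7.99 and 7.71 CPM in hemin nilotinib. The mock DMSO libraries were far above all others, the hemin DMSO libraries came next, and the nilotinib groups overlapped with each other. CISH fell 7.81-fold with nilotinib alone (-2.97 ± 0.17, adjusted p = 2.19e-09), 4.44-fold with hemin alone (-2.15 ± 0.16, adjusted p = 4.96e-08) and 2.31-fold with nilotinib on top of hemin (-1.21 ± 0.16, adjusted p = 9.14e-06; -1.42 ± 0.15 without the first hemin nilotinib library). The effect of nilotinib differed by 1.76 ± 0.23 (adjusted p = 6.02e-05). Hemin on top of nilotinib gave -0.39 ± 0.16 (adjusted p = 0.174), or -0.62 ± 0.15 (adjusted p = 0.00918) without the first hemin nilotinib library. Over 4.26% of its exon bases CISH overlaps MAPKAPK3 on the opposite strand, and whether the counting used strand is not given in the sources used here.

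SOCS2, an inhibitor best known for limiting growth hormone signaling, had an order of levels close to that of CISH. SOCS2 (chr12:93569814-93583487, plus strand) was at 111, 102 and 94.6 CPM in mock DMSO, at 9.69, 10.5 and 10 CPM in mock nilotinib, at 21.6, 28.8 and 26.4 CPM in hemin DMSO and at 8.16, 6.42 and 5.66 CPM in hemin nilotinib. No library of any group overlapped with those of another, with hemin nilotinib lowest. SOCS2 fell 10.2-fold with nilotinib alone (-3.35 ± 0.16, adjusted p = 4.8e-10), 4-fold with hemin alone (-2 ± 0.15, adjusted p = 5.22e-08) and 3.8-fold with nilotinib in the presence of hemin (-1.93 ± 0.16, adjusted p = 3.8e-08; -2.07 ± 0.16 without the first hemin nilotinib library). The effects of nilotinib differed by 1.42 ± 0.22 (adjusted p = 2.1e-04).

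Hemin lowered SOCS2 also on top of nilotinib, 1.49-fold (-0.58 ± 0.16, adjusted p = 0.0405; -0.74 ± 0.16, adjusted p = 0.00436, without the first hemin nilotinib library). That call was lost when any of the other 5 libraries of the 2 groups was left out, with adjusted p of 0.0645, 0.156 and 0.121 without the first, the second and the third mock nilotinib library and of 0.138 and 0.126 without the second and the third hemin nilotinib library. With the replicate number as a block in these 6 libraries alone, adjusted p was 0.0719. SOCS2 overlaps SOCS2-AS1 on the opposite strand over 4.09% of its exon bases.

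SOCS3, which inhibits Janus kinases bound to receptors of the interleukin-6 family, had the widest range of the 10 genes, 4.24 on the log2 scale of condition means. SOCS3 (chr17:78356778-78360077, minus strand) was at 38.5, 33.3 and 32 CPM in mock DMSO, at 2.26, 3.94 and 3.37 CPM in mock nilotinib, at 57.1, 59 and 62.9 CPM in hemin DMSO and at 2.62, 4.83 and 4.6 CPM in hemin nilotinib. The hemin DMSO libraries were highest, the mock DMSO libraries came next, and all 6 nilotinib libraries were far below both and overlapped. Nilotinib lowered SOCS3 10.9-fold without hemin (-3.44 ± 0.23, adjusted p = 9.37e-09) and 14.8-fold with hemin (-3.89 ± 0.23, adjusted p = 1.12e-09; -3.65 ± 0.20 without the first hemin nilotinib library), and the difference between these was -0.44 ± 0.30 (adjusted p = 0.284). Hemin alone raised it 1.72-fold (0.79 ± 0.20, adjusted p = 0.00366), unlike CISH and SOCS2, and hemin on top of nilotinib gave 0.34 ± 0.23 (adjusted p = 0.409). That last value was 0.57 ± 0.19 (adjusted p = 0.058) without the first hemin nilotinib library.

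SOCS1, which inhibits Janus kinases directly and is known for restraining interferon signaling, varied more between replicates. SOCS1 (chr16:11254405-11256200, minus strand) was at 27.5, 25.4 and 20.2 CPM in mock DMSO, at 5.35, 9.39 and 9.54 CPM in mock nilotinib, at 18.4, 10.4 and 16.2 CPM in hemin DMSO and at 5.12, 10.6 and 12.2 CPM in hemin nilotinib. The mock DMSO libraries were above all others, and the hemin nilotinib libraries overlapped with those of both hemin DMSO and mock nilotinib. SOCS1 fell 3.01-fold with nilotinib alone (-1.59 ± 0.30, adjusted p = 4.35e-04).

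The other effects of nilotinib or hemin on SOCS1, and their interaction, did not pass the test over all libraries. Hemin on top of nilotinib gave 0.21 ± 0.30 (adjusted p = 0.731). Nilotinib in the presence of hemin gave -0.69 ± 0.29 (adjusted p = 0.051), which was -0.38 ± 0.25 (adjusted p = 0.18) without the first hemin nilotinib library and passed the test without the second hemin DMSO library (-0.89, adjusted p = 0.0225) and the third hemin nilotinib library (-0.92, adjusted p = 0.0149). Hemin alone gave -0.70 ± 0.29 (adjusted p = 0.0524) and passed without the third mock DMSO library (-0.86, adjusted p = 0.037) and the first hemin DMSO library (-0.86, adjusted p = 0.0418), as it did without the first hemin nilotinib library (-0.71, adjusted p = 0.0083). The effects of nilotinib differed by 0.91 ± 0.42 (adjusted p = 0.111), or by 1.21 ± 0.33 (adjusted p = 0.00882) without the first hemin nilotinib library.

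Per kilobase, CISH and the 3 SOCS genes summed to 54.8 to 64 RPKM in mock DMSO, 7.88 to 10.6 in mock nilotinib, 35.6 to 39.9 in hemin DMSO and 7.33 to 10.8 in hemin nilotinib. The groups with nilotinib overlapped with each other and lay below both groups without it. In mock DMSO the 4 genes contributed similar shares, between 20.2% for SOCS3 and 32.7% for CISH. In hemin DMSO SOCS3 made 53.9% to 60.5% of the sum and CISH 9.96% to 11.4%, and in mock nilotinib SOCS1 made the largest share, 37.8% to 52.9%.

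OSM was the only one of the 10 genes that nilotinib raised without hemin, and it stayed at a low level in every group. OSM (chr22:30262829-30266840, minus strand) had 7, 4 and 9 counts in mock DMSO, 61, 93 and 70 in mock nilotinib, 17, 18 and 31 in hemin DMSO and 24, 33 and 37 in hemin nilotinib. On the CPM scale these were 0.126, 0.0954 and 0.173, then 1.55, 2.71 and 2.02, then 0.521, 0.574 and 0.786, and 0.69, 0.906 and 0.865. The mock DMSO libraries were below all others, the mock nilotinib libraries above all others, and the hemin groups overlapped with each other. The mock DMSO libraries were under the 0.27 CPM of the low-count filter, which OSM passed through its other groups, whereas the other 9 genes were above it in all 12 libraries.

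OSM rose 15.4-fold with nilotinib alone (3.94 ± 0.39, adjusted p = 7.09e-07) and 4.66-fold with hemin alone (2.22 ± 0.41, adjusted p = 2.51e-04). Nilotinib in the presence of hemin gave 0.38 ± 0.35 (adjusted p = 0.349; 0.50 ± 0.39 without the first hemin nilotinib library), a difference of -3.56 ± 0.52 from its effect without hemin (adjusted p = 1.54e-04). Hemin on top of nilotinib lowered OSM 2.54-fold (-1.34 ± 0.33, adjusted p = 0.0267; -1.24 ± 0.37, adjusted p = 0.0343, without the first hemin nilotinib library). This last call was lost without the second or the third mock nilotinib library (adjusted p = 0.152 and 0.0837) and without the second or the third hemin nilotinib library (adjusted p = 0.0759 and 0.0502).

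**Figure D4:**
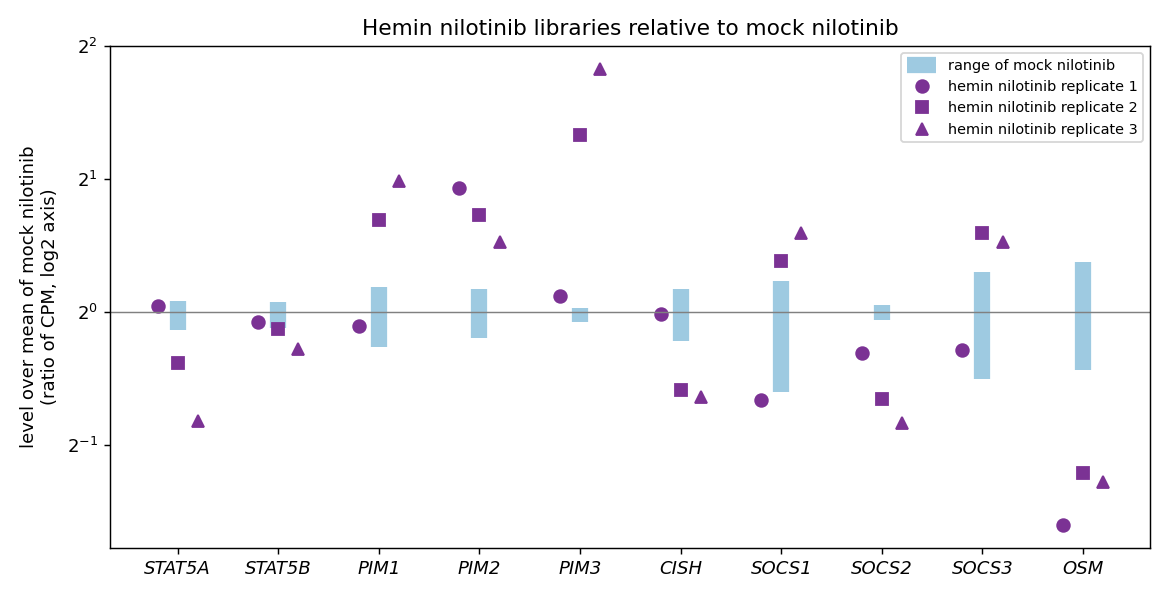
Level of the 10 genes (x axis) in each hemin nilotinib library divided by the mean of the mock nilotinib libraries (y axis, ratio of CPM on a log2 axis), with bars for the range of the mock nilotinib libraries. For PIM1 the first library lies within the bar and the other 2 above it, and for PIM3 the first, at 54.8 CPM, lies closest to the bar.

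The rest of the pathway was described by 4 lists of genes. The 4 other STAT genes examined passed the filter, and nilotinib raised 3 and lowered 1 of them without hemin (median log2 fold change 0.90) and raised 2 with hemin (median 1.19). In these comparisons 42.5% and 64.2% of all genes were called. STAT6, which transduces interleukin-4 signals, rose from 59.9 ± 2.44 (SD, n = 3) to 98.5 ± 7.68 CPM without hemin (0.72 ± 0.12, adjusted p = 1.03e-04) and from 23.3 ± 1.52 to 75.9 ± 4.65 CPM with it (1.70 ± 0.12, adjusted p = 6.42e-09). Thus STAT6 rose with nilotinib in both conditions, where STAT5A fell in the mock condition and rose with hemin.

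Of 15 Janus kinase and cytokine receptor genes 13 were tested, and nilotinib raised 6 and lowered 2 of them without hemin (median 0.56) and raised 3 and lowered 6 with hemin (median -0.17). Thus 8 and 9 of the 13 were called, where 42.5% and 64.2% of all genes were called in these comparisons. JAK2, the kinase that signals from the erythropoietin receptor to STAT5, was at 61.8 ± 2.58 CPM in mock DMSO and 127 ± 11.6 in mock nilotinib, and at 16.8 ± 3.75 CPM in hemin DMSO and 111 ± 7.49 in hemin nilotinib (n = 3 each). It rose by 1.04 ± 0.15 without hemin (adjusted p = 3.34e-05) and by 2.73 ± 0.16 with it (adjusted p = 8.71e-10). EPOR, the erythropoietin receptor gene, rose from 41.7 ± 7.91 to 165 ± 9.57 CPM (1.99 ± 0.19, adjusted p = 3.81e-07) and from 7.67 ± 1.33 to 156 ± 40.3 CPM (4.35 ± 0.21, adjusted p = 1.41e-10). Both genes were lowest in hemin DMSO, as were STAT5A, STAT5B, STAT6, BCL2L1, GATA1, TAL1 and KLF1, among others. Of the receptor chains through which OSM signals, LIFR fell with nilotinib in the presence of hemin (-1.71 ± 0.18, adjusted p = 7.52e-07) and gave -0.42 ± 0.18 without it (adjusted p = 0.0684), which was called without the first hemin nilotinib library (-0.43, adjusted p = 0.0322). IL6ST, the chain shared by receptors of the interleukin-6 family, rose without hemin (0.56 ± 0.13, adjusted p = 0.00196) and gave -0.16 ± 0.13 with it (adjusted p = 0.26). OSMR, the other partner of IL6ST, was not called in either (-0.43 ± 0.38, adjusted p = 0.375, and -0.17 ± 0.39, adjusted p = 0.713). IL6ST and OSMR were chosen after their values were seen.

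All 14 other SOCS genes and inhibitors of the pathway were tested, of which nilotinib lowered 7 and raised 1 without hemin (median -0.31) and lowered 6 and raised 1 with hemin (median -0.17). Thus 8 and 7 of 14 were called, beside the same 42.5% and 64.2% of all genes. CBL, a ubiquitin ligase that acts on activated receptors and kinases, fell by 0.86 on the log2 scale (SE 0.14, adjusted p = 1.11e-04) without hemin and by 1.59 (SE 0.14, adjusted p = 8.89e-08) with it. These medians lie nearer to 0 than those of the 10 genes, -1.64 and -0.67.

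Of 11 other known STAT5 targets 10 were tested, and each was called in both nilotinib comparisons, 8 lower and 2 higher without hemin (median -1.69) and 7 lower and 3 higher with it (median -1.42). Over all genes 42.5% and 64.2% were called in these comparisons, 21.8% and 31.8% lower and 20.7% and 32.4% higher. BCL6, a transcriptional repressor gene whose promoter also held at least 4 TTCNNNGAA sequences, went from 69.2 ± 23.2 to 3.43 ± 0.44 CPM without hemin (-4.33 ± 0.46, adjusted p = 1.57e-06) and from 90.7 ± 12.8 to 12.9 ± 9.89 CPM with it (-2.81 ± 0.42, adjusted p = 2.46e-05). The value with hemin was -2.36 without the first hemin nilotinib library and -3.54 without the third. CCND2, the cyclin D2 gene, fell 7.02-fold and 10.5-fold (adjusted p = 2.52e-06 and 2.05e-07), and MYC fell 4.53-fold and 2.76-fold (adjusted p = 3.67e-09 and 8.1e-08). The fall of CCND2 with hemin was 7.98-fold without the first hemin nilotinib library. CCND1, the cyclin D1 gene, fell 3.84-fold and 10.8-fold from low levels (adjusted p = 9.58e-04 and 2.79e-06). ID1, an inhibitor of basic helix-loop-helix factors, fell 6.18-fold and 3.48-fold (adjusted p = 9.85e-08 and 1.99e-06).

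BCL2L1, which encodes the survival protein BCL-XL, shared the sign change of STAT5A. It was at 168 ± 11.5 CPM in mock DMSO, 61.6 ± 7.17 in mock nilotinib, 34.7 ± 6.56 in hemin DMSO and 51.6 ± 3.62 in hemin nilotinib (n = 3 each). It fell 2.72-fold with nilotinib without hemin (-1.45 ± 0.15, adjusted p = 8.41e-07) and rose 1.49-fold with nilotinib in the presence of hemin (0.57 ± 0.14, adjusted p = 0.00245). The transferrin receptor gene TFRC rose 4.34-fold and 3.56-fold with nilotinib (adjusted p = 0.00328 and 0.00493), but the value with hemin was 1.35-fold (adjusted p = 0.103) without the first hemin nilotinib library. Without that library the targets called with hemin were 7 lower and 1 higher of 10, where 13828 genes were called in all.

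**Figure D5:**
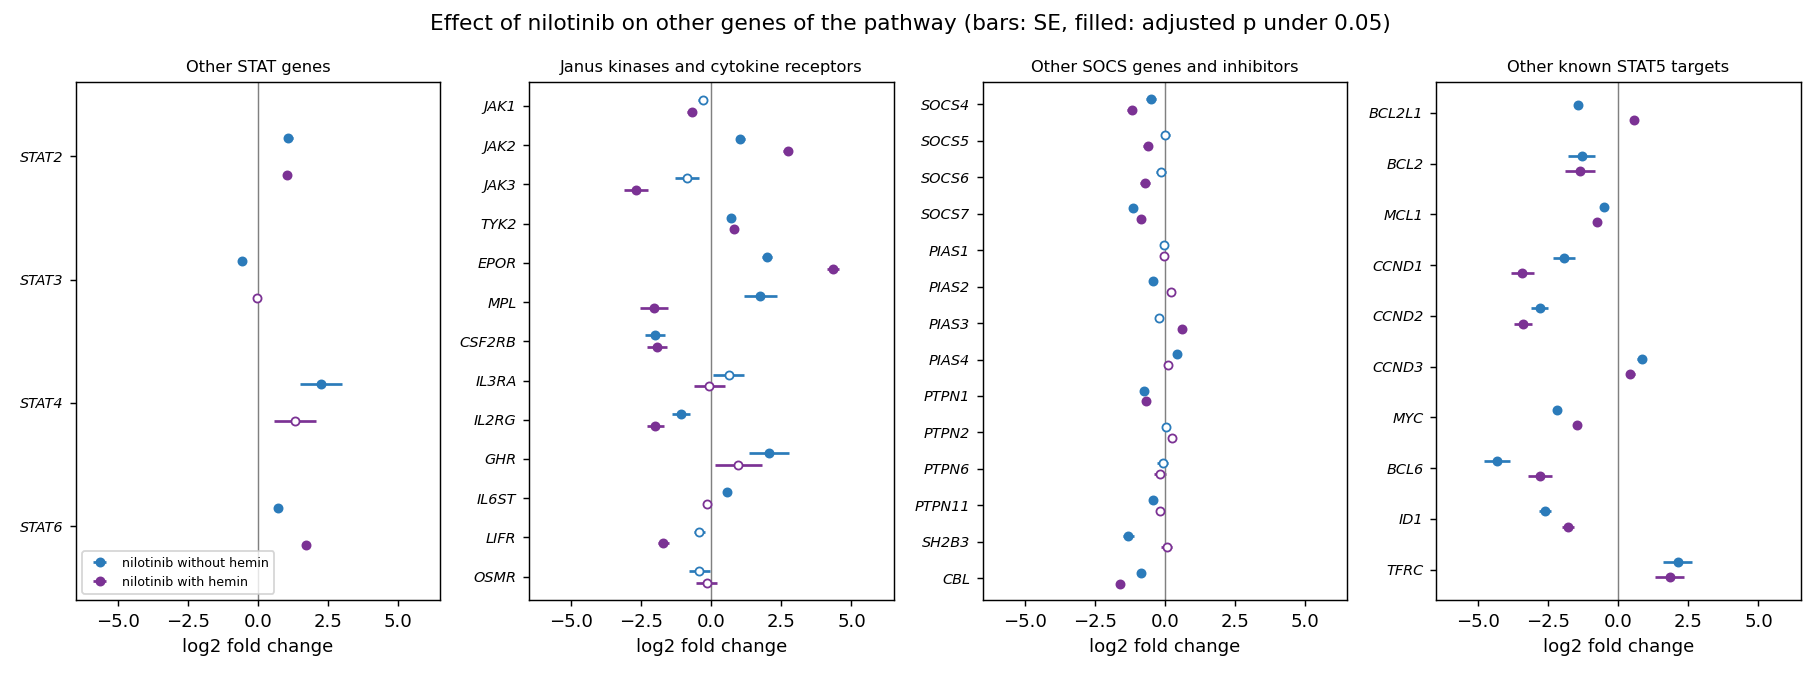
Log2 fold change with its standard error (x axes) for nilotinib without hemin (blue) and with hemin (purple) of the tested genes of 4 pathway lists (y axes), filled where the adjusted p was under 0.05. EPOR lies at 1.99 and 4.35, and BCL6 at -4.33 and -2.81.

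The genes whose 4 condition means followed those of a member most closely were sought for the 4 members with the widest range, by the smallest root mean square difference of centred log2 levels over 12 libraries in 4 conditions, among 14875 genes (14876 for OSM) with a mean of at least 1 CPM. Closest to SOCS3 were MYH15, SLC39A14 and SETD7, at differences of 0.0925, 0.116 and 0.167. SLC39A14, a zinc and iron transporter gene, was at 108 ± 9.33 CPM in mock DMSO, 9.97 ± 0.58 in mock nilotinib, 217 ± 21.6 in hemin DMSO and 15.4 ± 5.58 in hemin nilotinib (n = 3 each). Closest to SOCS2 were NAV1, GALM and CCDC144A, at 0.0912, 0.162 and 0.221. Closest to CISH were ABALON, RCSD1 and MMP17, at 0.152, 0.177 and 0.186, and closest to OSM were NFASC, KLF10 and COL9A1, at 0.271, 0.279 and 0.34. CISH and SOCS2 were each other's closest member, at 0.278. These are descriptions over 4 means and carry no test.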

How the data were processed

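Total RNA of 12 K562 libraries was sequenced by the study as 150-base paired-end reads. The authors deposited raw read counts per gene, with a gene length for each gene, and FPKM values that were not used here. The submitters' processing notes name GRCh38.p12, DESeq2 and DESeq, and the aligner, the counter and the use of strand are not given in the sources used here. The positions of all 58735 genes were those of GENCODE 29.

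The 10 members and the gene lists were chosen with earlier results of these data known, and 2 genes of the lists are not reported here. Genes of the lists were named when their adjusted p was under 0.05 and their log2 fold change at least 1 in size in either nilotinib comparison, and IL6ST and OSMR were added after seeing their values. Counts were filtered with filterByExpr (minimum count 10, total 15), scaled by TMM and tested with edgeR 4.0.16's quasi-likelihood test in R 4.3.3, with 1 mean per condition over 12 libraries, two-sided, and Benjamini-Hochberg adjustment over 20821 genes. SE is the log2 fold change divided by the root of F. CPM used TMM-scaled library sizes, and RPKM divided it by the deposited length in kilobases.

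Alternatives were DESeq2 1.42.0, RLE factors, library totals, all genes with at least 1 count, the 6 libraries of a comparison alone, a block on the replicate number, and fits that omitted 1 library. Blocking the 6 nilotinib libraries alone, the list counts without the first hemin nilotinib library and the alternatives for list genes were added after seeing the data. Replicate numbers were taken to pair libraries where all correlations of same-numbered deviations were above 0.1, a cutoff chosen here. Only the hemin nilotinib and mock nilotinib libraries met it, at 0.199 to 0.263. Nilotinib without hemin (0.087 to 0.099) and hemin without nilotinib (0.085 to 0.104) lay close to the cutoff. Nilotinib with hemin ranged from -0.007 to 0.235. The scripts were tested on simulated counts. Promoters came from RefSeq (GRCh38.p14).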

Additional observations from a re-analysis of the deposited data

Results flagged for a closer look

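The effect of nilotinib differed between the hemin and the mock condition by the interaction term of edgeR's quasi-likelihood test for 6 of the 10 genes, given as the log2 fold change with hemin minus that without. The difference was 2.17 for STAT5A (adjusted p = 8.91e-05), 1.2 for PIM1 (0.0122), 2.01 for PIM2 (7.68e-06), 1.76 for CISH (6.02e-05), 1.42 for SOCS2 (2.1e-04) and -3.56 for OSM (1.54e-04). STAT5A fell with nilotinib in the mock condition and rose with it in the presence of hemin, and PIM2, CISH and SOCS2 fell less with hemin than without it. PIM1 fell and OSM rose in the mock condition. With hemin neither passed the test over all libraries, and PIM1 gave -0.49 (adjusted p = 0.0755).

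Among the named genes of the pathway lists the difference was positive for STAT6 (0.99, adjusted p = 3.9e-04), JAK2 (1.69, adjusted p = 4.11e-05), EPOR (2.36, adjusted p = 1.55e-05), BCL2L1 (2.02, adjusted p = 7.92e-06), MYC (0.71, adjusted p = 0.00721) and ID1 (0.83, adjusted p = 0.0427). It was negative for LIFR (-1.29, adjusted p = 0.00157), CBL (-0.73, adjusted p = 0.0105) and IL6ST (-0.72, adjusted p = 0.00647). The difference for ID1 was not called under RLE factors or without 8 of the 12 libraries in turn, and that for CBL not under library totals (adjusted p = 0.0591). BCL6, TFRC and CCND1 were not called over all libraries (1.53, adjusted p = 0.0564, -0.29, adjusted p = 0.791, and -1.49, adjusted p = 0.0568). Without the first hemin nilotinib library BCL6 (1.98, adjusted p = 3.47e-04) and TFRC (-1.69, adjusted p = 5.07e-04) were called, while without the third BCL6 gave 0.82 (adjusted p = 0.168) and CCND1 was called (-2.03, adjusted p = 0.00894).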

How the results depend on the processing

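The counts of members called in the nilotinib comparisons, in hemin without nilotinib and in the interaction stayed within 1.5 times under every alternative run. Hemin with nilotinib did not: 3 of the 10 genes and 1208 of all genes were called, against 5 and 1987 with all genes of at least 1 count, 0 and 183 in the 6 libraries alone (5 of the 10 and 3587 genes at an unadjusted p under 0.05 in edgeR), and 1902 of all genes with DESeq2, where 3 of the 10 remained. Leaving out a library gave 0 to 6 of the 10 and 213 to 2793 of all genes, the highest without the first hemin nilotinib library. With the replicate number as a block in all 12 libraries the counts were 3 and 1587, and in the 6 libraries alone 2 and 1600. In the comparisons that did not meet the pairing cutoff, the block changed member calls only for nilotinib with hemin. There PIM1 (-0.52, adjusted p = 0.014) and SOCS1 (-0.73, adjusted p = 0.0433) were called and the count was 9.

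Of the member values under alternatives, 606 kept direction and side of the threshold, 26 lost and 26 gained a call, and SOCS1 turned sign in hemin with nilotinib, from 0.21 to -0.024 without the first mock nilotinib library and to -0.051 without the third hemin nilotinib library (0.496 without the first hemin nilotinib library), none of them called. The interaction of TFRC, -0.29 and not called, was 0.042 without the first mock DMSO library and 0.13 and 0.17 without the second and the third hemin nilotinib library, against -1.688 without the first. PIM3 was not called with DESeq2 for nilotinib without hemin (adjusted p = 0.0727), and PIM1 not with RLE factors for hemin alone (adjusted p = 0.0522). SOCS1 was called for nilotinib with hemin by DESeq2 and RLE factors (adjusted p = 0.0321 and 0.037), and STAT5B for nilotinib without hemin in the 6 libraries alone (0.25, adjusted p = 0.033). SOCS1 was called for hemin alone in the 6 libraries alone, under library totals and with all genes of at least 1 count (adjusted p = 0.0093, 0.0189 and 5.6e-04), and LIFR for nilotinib without hemin in the 6 libraries alone and by DESeq2 (adjusted p = 0.023 and 0.0499). The CCND1 interaction was called by DESeq2, under RLE factors, with all genes of at least 1 count and under the block (adjusted p = 0.0235, 0.0465, 0.0125 and 0.0457), and that of BCL6 under library totals and with all genes (adjusted p = 0.0396 and 2.85e-09). The causes were not tested.

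Scaling moved the median of all genes by -0.15 (DESeq2) and 0.18 (library totals) in nilotinib with hemin, by 0.18 and -0.24 in hemin without nilotinib and by -0.24 and 0.21 in the interaction, and no member changed sign under either. Under library totals 33.9% of the genes called were higher in hemin without nilotinib, against 48% with TMM, 49.2% against 60.7% in hemin with nilotinib and 73.3% against 56.7% in the interaction. OSM, with 4 to 9 counts in mock DMSO, is limited by depth.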
